A study of Mus musculus with 6 samples.

Results

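The genes described here encode the proteins with which leukocytes hold on to vessel walls, matrix and each other: the integrin alpha subunits Itgam, Itgal, Itgax and Itga4, the beta subunits Itgb2, Itgb1 and Itgb7, the selectin ligand Selplg and the integrin ligand Icam1. They were taken by name from the raw counts, and all 9 were found among 21955 identifiers and passed the filter on low counts. Poly-A RNA was sequenced from dural neutrophils, which lie in the outer sheet of the meninges, in wild-type (WT) mice that had all met a social threat. Of the 6 libraries, 3 carried the label female and 3 the label male, and no unexposed level is given. The sources used here state neither strain nor age nor the number of animals per library. By its labels, the design sets the sexes against each other under the same exposure.

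An integrin is a pair of 1 alpha and 1 beta chain, which the cell keeps folded until chemokine or other signals open it. On neutrophils the beta2 chain, encoded by Itgb2, pairs with the products of Itgal, Itgam and Itgax to form LFA1, Mac1 and the p150,95 receptor. The alpha4 chain pairs with beta1 to bind VCAM1 and with beta7 to bind MAdCAM1. Selectins slow the cell in the blood stream by gripping PSGL1, the product of Selplg, and beta2 integrins then stop it by binding ICAM1. These receptors are known above all from the passage of neutrophils out of venules.

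Total counts were 18555944, 19003104 and 20778410 in the female-labelled libraries and 18272577, 17270072 and 17098026 in the male-labelled ones. Neutrophil markers were abundant in all 6, with S100a9 at 19050 ± 2431 CPM (counts scaled to library size with TMM factors) in the female-labelled libraries and 15660 ± 1086 CPM in the male-labelled ones (SD, n = 3 each). The summed level of 4 Y-linked genes was 312 to 328 CPM in the female-labelled libraries and 307 to 318 CPM in the male-labelled ones, which goes against the label female. Groups are therefore named by their labels, and no direction below is known to be one of sex. Replicate 3 labelled female stood apart within its group, with a chi-square per degree of freedom of 13.4 and 16.5 against its 2 companions and 5.14 between these, and results that rest on it are given without it. Whether each library had its own animals is not stated, so p-values reflect only the variation among these libraries, possibly technical.

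Of the 9 genes, 3 rose and 3 fell in the female-labelled libraries, and 3 did not pass the test. Itgam, Itgb2 and Itgb1 rose 1.24-fold, 1.16-fold and 1.17-fold, and Itgax, Itgb7 and Icam1 fell 1.38-fold, 1.26-fold and 1.28-fold. Itgal, Itga4 and Selplg did not pass. Over all 11903 genes tested 13.9% passed in either direction at an adjusted p under 0.05 (7.29% higher and 6.62% lower), with a median log2 fold change of 0.00 against 0.06 over the 9. The groups did not overlap in 6 of the 9 genes, the same 6 that passed, against 30.9% of all genes tested. The 9 were chosen with earlier results of these data known, so this share is a description only. Every log2 fold change is the female-labelled level minus the male-labelled one. Since these are bulk libraries, fewer cells of a type and less RNA per cell cannot be told apart. Without replicate 3 labelled female the same 6 genes passed.

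**Figure D1:**
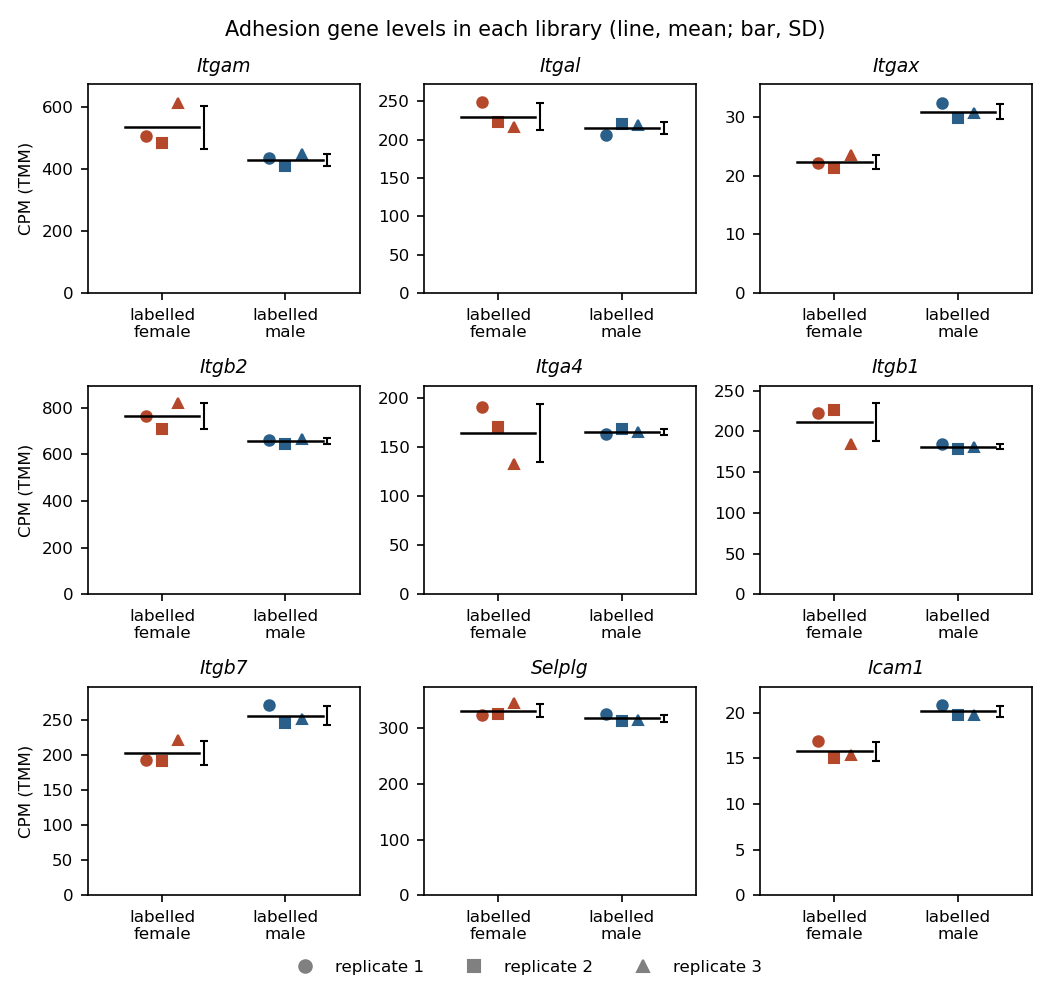
Levels of the 9 adhesion genes in CPM (vertical axes, from 0) in each female-labelled library (left, red) and male-labelled library (right, blue); symbols mark the replicate number, lines the mean and bars the SD of 3 libraries. Itgax, Itgb7 and Icam1 lie lower in every female-labelled library, Itgam, Itgb2 and Itgb1 higher, and the groups overlap in Itgal, Itga4 and Selplg.

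Itgam (ENSMUSG00000030786, chromosome 7) encodes CD11b, the alpha chain of Mac1, which binds complement fragments, fibrinogen and ICAM1. Its level was 506, 484 and 612 CPM in the female-labelled libraries, against 434, 409 and 447 CPM in the male-labelled ones. All 3 values of the first group lay above all 3 of the second, with replicate 3 labelled female the highest. The rise was 0.31 on the log2 scale (SE 0.073, 95% interval 0.159 to 0.463, adjusted p = 0.00636 by edgeR's quasi-likelihood test with Benjamini-Hochberg adjustment). It was 0.20 without replicate 3 labelled female (adjusted p = 0.00191), and missed the threshold without male replicate 2 (0.28, adjusted p = 0.0509, where 14 alternatives gave 4.92e-06 to 0.0509). A further identifier, Gm49368, overlaps Itgam on the same strand and held 3 to 17 counts per library, against at least 7176 for Itgam.

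Itgb2 (ENSMUSG00000000290, chromosome 10) encodes CD18, the beta chain shared by LFA1, Mac1 and p150,95, without which none of them reaches the cell surface. It had 766, 706 and 818 CPM in the female-labelled libraries and 659, 643 and 667 CPM in the male-labelled ones. The groups were apart, and replicate 3 labelled female was again the highest. The change was 0.22 (SE 0.0603, 95% interval 0.092 to 0.343, adjusted p = 0.0192 by edgeR). The call was lost when any male-labelled library, replicate 1, 2 or 3, was left out (adjusted p = 0.0791, 0.0979 and 0.0798, against 0.00269 to 0.0979 over 14 alternatives), with a log2 change of at least 0.20 in each of these fits.

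Itgal (ENSMUSG00000030830, chromosome 7) encodes CD11a, which with beta2 forms LFA1, the receptor of ICAM1 on most leukocytes. Its level was 249.7, 223 and 216 CPM in the female-labelled libraries, against 207, 220.3 and 219 CPM in the male-labelled ones. The groups overlapped, and replicate 1 labelled female was the highest of the 6. The change was 0.09 (SE 0.0628, 95% interval -0.0377 to 0.224, adjusted p = 0.359 by edgeR), so an increase of up to 0.22 lay within the interval.

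Itgax (ENSMUSG00000030789, chromosome 7) encodes CD11c, the alpha chain of p150,95, best known as a surface marker of dendritic cells. Its level was 22.2, 21.2 and 23.6 CPM in the female-labelled libraries, against 32.3, 29.8 and 30.6 CPM in the male-labelled ones. Every library of the first group lay below every one of the second by a margin larger than the range within either group. The decrease was the largest of the 9 genes in the fit to all libraries, at -0.47 (SE 0.0886, 95% interval -0.653 to -0.284, adjusted p = 0.00106 by edgeR). It passed the 0.05 threshold in all 14 alternatives (log2 -0.51 to -0.43, adjusted p 8.57e-05 to 0.0105). Counts of this gene were 420, 421 and 475 in the female-labelled libraries, and 572, 522 and 514 in the male-labelled ones, far fewer than for Itgam.

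Itgb7 (ENSMUSG00000001281, chromosome 15) encodes the beta chain that pairs with alpha4 in the gut-homing receptor of lymphocytes and with alphaE in epithelial T cells. It had 194, 192 and 223 CPM in the female-labelled libraries and 272, 246 and 252 CPM in the male-labelled ones. The groups were apart, replicate 3 labelled female lying nearest to the other group. The change was -0.34 (SE 0.0657, 95% interval -0.476 to -0.202, adjusted p = 0.00134 by edgeR), and it passed in all 14 alternatives (log2 -0.41 to -0.29, adjusted p 1.43e-07 to 0.0242). Itgae, the alphaE gene and the other partner of beta7, was scarce, with 18, 24 and 10 counts in the female-labelled libraries and 20, 19 and 13 in the male-labelled ones.

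Itgb1 (ENSMUSG00000025809, chromosome 8) encodes the beta1 chain, the common partner of collagen, laminin and fibronectin receptors and of alpha4. Its level was 223, 227 and 184 CPM in the female-labelled libraries, against 184, 178 and 181 CPM in the male-labelled ones. Replicates 1 and 2 labelled female stood high, while replicate 3 lay at the level of the male-labelled libraries and exceeded the highest of them by less than 1 CPM. The rise was 0.22 (SE 0.0695, 95% interval 0.077 to 0.367, adjusted p = 0.0373 by edgeR). Without replicate 3 labelled female it was 0.31 (adjusted p = 9.81e-06). The call was lost without any other library (adjusted p 0.101 to 0.185) and with upper-quartile scaling (adjusted p = 0.0518), where all 14 alternatives gave 9.81e-06 to 0.185.

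Itga4 (ENSMUSG00000027009, chromosome 2) encodes CD49d, the alpha4 chain, which is known to fade from the surface of neutrophils as they mature. It had 190.5, 170.3 and 132 CPM in the female-labelled libraries and 163, 168 and 165 CPM in the male-labelled ones. The female-labelled libraries spanned both sides of the others, replicate 1 the highest and replicate 3 the lowest of all 6. The change was -0.01 (SE 0.0882, 95% interval -0.193 to 0.175, adjusted p = 0.96 by edgeR). Without replicate 3 labelled female it was 0.13 (adjusted p = 0.0903, where 14 alternatives gave 0.0903 to 0.999), and without male replicate 2 it was 0.00, so its direction rested on these libraries. The spread was 29.4 CPM (SD) in the female-labelled libraries and 2.66 CPM in the male-labelled ones. Cerkl, which overlaps Itga4 on the opposite strand, held 15 to 41 counts per library.

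Selplg (ENSMUSG00000048163, chromosome 5) encodes PSGL1, the mucin that P-selectin and E-selectin bind on rolling neutrophils. Its level was 323, 326 and 345 CPM in the female-labelled libraries, against 325, 313 and 315 CPM in the male-labelled ones. The groups overlapped, and the change was 0.06 (SE 0.0558, 95% interval -0.0561 to 0.177, adjusted p = 0.526 by edgeR). No alternative brought it past the threshold (adjusted p 0.478 to 0.72 over 14).

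Icam1 (ENSMUSG00000037405, chromosome 9) encodes the immunoglobulin-family ligand of LFA1 and Mac1, which inflamed endothelium carries and which neutrophils can also make after activation. Its level was 16.9, 15.02 and 15.3 CPM in the female-labelled libraries, against 20.8, 19.8 and 19.8 CPM in the male-labelled ones. The groups were apart, on 298 to 320 counts in the female-labelled libraries and 332 to 369 in the male-labelled ones. The decrease was -0.35 (SE 0.104, 95% interval -0.571 to -0.138, adjusted p = 0.0261 by edgeR). The call was lost without female replicate 2 (adjusted p = 0.112) or male replicate 1, 2 or 3 (adjusted p = 0.0893, 0.0667 and 0.0688), over a range of 0.0209 to 0.112 in 14 alternatives, with a log2 change of -0.41 to -0.32.

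**Figure D2:**
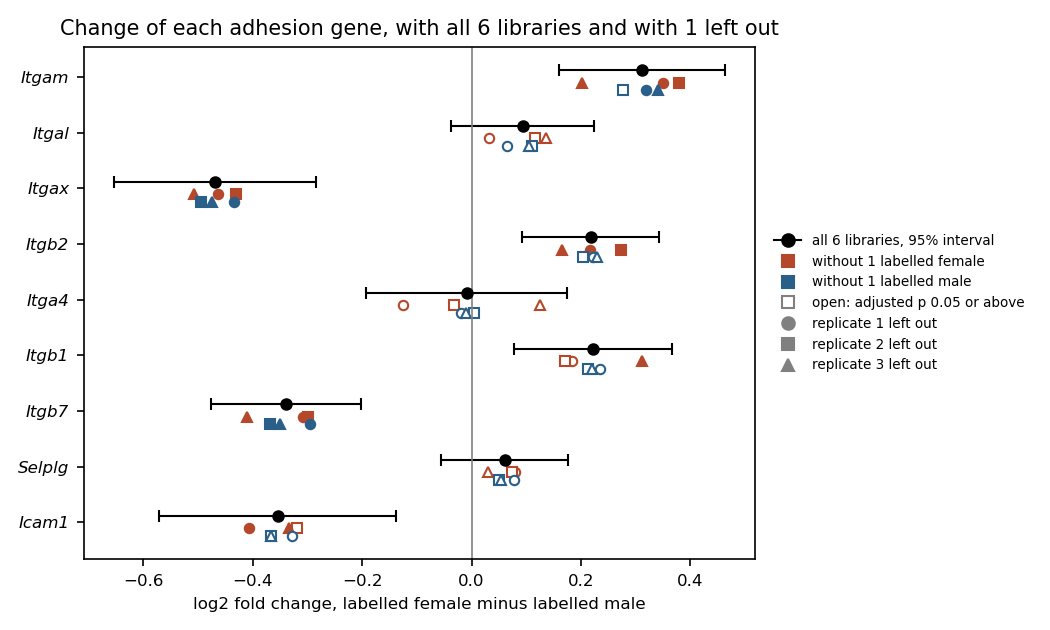
Log2 fold change of each gene (horizontal axis; female-labelled libraries minus the male-labelled ones) in the fit to all 6 libraries (black, with its 95% interval) and with 1 library left out (red, 1 labelled female; blue, 1 labelled male; the symbol gives its replicate number; open symbols did not pass an adjusted p of 0.05). Itgax and Itgb7 keep filled symbols throughout, and Itga4 lies on both sides of 0.

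Promoter sequence is shown for the genes that passed the test and stand in the RefSeq promoter table of build GRCm38.p6, which held 6 of the 9 genes. The sequences are the 250 bases before the listed start, written 5′ to 3′ along the gene. They lie at chr9:21015690-21015939 (plus strand) for Icam1, chr7:128129300-128129549 (plus) for Itgax, chr15:102231936-102232185 (minus) for Itgb7, chr7:128062390-128062639 (plus) for Itgam and chr8:128685404-128685653 (plus) for Itgb1. Capitals mark matches, on either strand, to 3 motifs: the NF-kB site GGAAATTCC, the STAT site TTCNNNGAA and the Ets-family core GAGGAA, which PU.1 binds.
Icam1: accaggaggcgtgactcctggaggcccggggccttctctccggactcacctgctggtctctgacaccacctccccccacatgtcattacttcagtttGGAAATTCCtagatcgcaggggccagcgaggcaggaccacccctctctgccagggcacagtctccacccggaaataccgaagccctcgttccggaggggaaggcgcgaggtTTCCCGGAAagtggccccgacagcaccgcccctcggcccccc
Itgax: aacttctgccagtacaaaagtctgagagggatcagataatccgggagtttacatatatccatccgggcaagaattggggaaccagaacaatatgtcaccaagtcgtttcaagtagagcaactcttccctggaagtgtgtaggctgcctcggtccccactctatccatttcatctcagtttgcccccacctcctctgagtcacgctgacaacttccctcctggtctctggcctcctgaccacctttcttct
Itgb7: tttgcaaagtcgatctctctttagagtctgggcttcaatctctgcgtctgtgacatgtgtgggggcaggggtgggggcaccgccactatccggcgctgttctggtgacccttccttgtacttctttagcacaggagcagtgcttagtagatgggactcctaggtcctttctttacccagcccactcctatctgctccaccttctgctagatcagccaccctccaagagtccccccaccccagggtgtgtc
Itgam: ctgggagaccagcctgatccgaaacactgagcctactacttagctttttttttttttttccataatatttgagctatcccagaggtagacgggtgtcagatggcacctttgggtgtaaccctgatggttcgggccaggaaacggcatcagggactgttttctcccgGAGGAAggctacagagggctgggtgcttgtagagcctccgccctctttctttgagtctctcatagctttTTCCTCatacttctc
Itgb1: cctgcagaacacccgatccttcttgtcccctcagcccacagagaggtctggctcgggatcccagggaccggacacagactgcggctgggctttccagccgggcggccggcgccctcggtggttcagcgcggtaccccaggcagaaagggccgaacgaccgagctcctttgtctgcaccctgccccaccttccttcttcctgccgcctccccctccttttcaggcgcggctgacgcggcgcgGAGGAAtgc

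Of these 5 windows, that of Icam1 held the NF-kB letters at -153 to -145 and a STAT match, TTCCCGGAA, at -42 to -34, counted from the listed start. For Icam1 alone of the 5, a short stretch past that start was found in no protein-coding transcript of the annotation used. That stretch does not test where a start lies, so the positions in all 5 windows rest on the RefSeq start alone. The NF-kB letters were chosen because they are the site known from this very promoter, so finding them there is no result. They occur in 0.286% of 32851 promoter windows of the same length, and the STAT letters in 7.02%. The Ets core stood in Itgam at -84 to -79 and, on the other strand, at -15 to -10, and in Itgb1 at -9 to -4, against 23.3% of all windows. Itgax and Itgb7 held none of the 3. None of these motifs overlapped another in these windows. The matches are descriptions of the letters and say nothing of which factor was bound.

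Compared per kb of the longest protein-coding transcript, Itgb2 was the most abundant of the 9, at 257 ± 18.8 CPM per kb in the female-labelled libraries and 221 ± 4.18 in the male-labelled ones (SD, n = 3 each). Selplg came second, at 178 ± 6.45 CPM per kb in the female-labelled libraries and 171 ± 3.52 in the male-labelled ones. In the female-labelled libraries Itgam followed at 114 ± 14.6 CPM per kb and Itgb7 at 75.6 ± 6.39, each apart from the next. In the male-labelled ones Itgb7 stood at 95.6 ± 5.07 and Itgam at 91.9 ± 4.14 CPM per kb, with ranges that overlapped. Below them came Itgb1, Itgal and Itga4 in both groups, at 55.4 ± 6.09, 43.99 ± 3.38 and 16.8 ± 3.01 CPM per kb in the female-labelled libraries and 47.5 ± 0.763, 41.2 ± 1.42 and 16.9 ± 0.272 in the male-labelled ones. Icam1 and Itgax were lowest, at 6.22 ± 0.405 and 5.52 ± 0.290 CPM per kb in the female-labelled libraries and 7.94 ± 0.241 and 7.64 ± 0.319 in the male-labelled ones, where their ranges overlapped. With the length of all exons of a gene, Selplg and Icam1 each came lower in the order, so their places depend on the length used.

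The pool of beta chain transcripts differed in make-up between the groups. Itgb7 made up 18.6, 19.4 and 20.4% of the CPM per kb of Itgb2, Itgb1 and Itgb7 together in the female-labelled libraries, against 27.3, 25.8 and 25.7% in the male-labelled ones. Itgb2 made up 66.4, 64.5 and 67.7% in the female-labelled libraries, against 59.7, 61.0 and 61.4% in the male-labelled ones. The groups did not overlap in either share, and they did in that of Itgb1 (14.3 ± 2.19% in the female-labelled libraries and 13.04 ± 0.126% in the male-labelled ones). The log2 ratio of Itgb1 to Itgb7, the 2 beta partners of alpha4, was taken in CPM, not scaled by transcript length. It was 0.197, 0.24 and -0.271 in the female-labelled libraries and -0.562, -0.462 and -0.481 in the male-labelled ones. Per kb, the share of Itgb1 lay below that of Itgb7 in every library.

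Among the alpha chains that pair with beta2, Itgam took 66.97, 68.3 and 73.5% of CPM per kb in the female-labelled libraries, against 66.1, 63.8 and 65.9% in the male-labelled ones. The groups did not overlap, and the difference of 4.3 percentage points was 2.35 without replicate 3 labelled female. Itgax took 3.38 ± 0.0978% in the female-labelled libraries and 5.43 ± 0.241% in the male-labelled ones, again without overlap. The share of Itgal overlapped between the groups, at 27.1 ± 3.35% in the female-labelled libraries and 29.3 ± 1.34% in the male-labelled ones. The shares are a description without a test, since 3 libraries against 3 cannot give an exact two-sided p under 0.1.

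**Figure D3:**
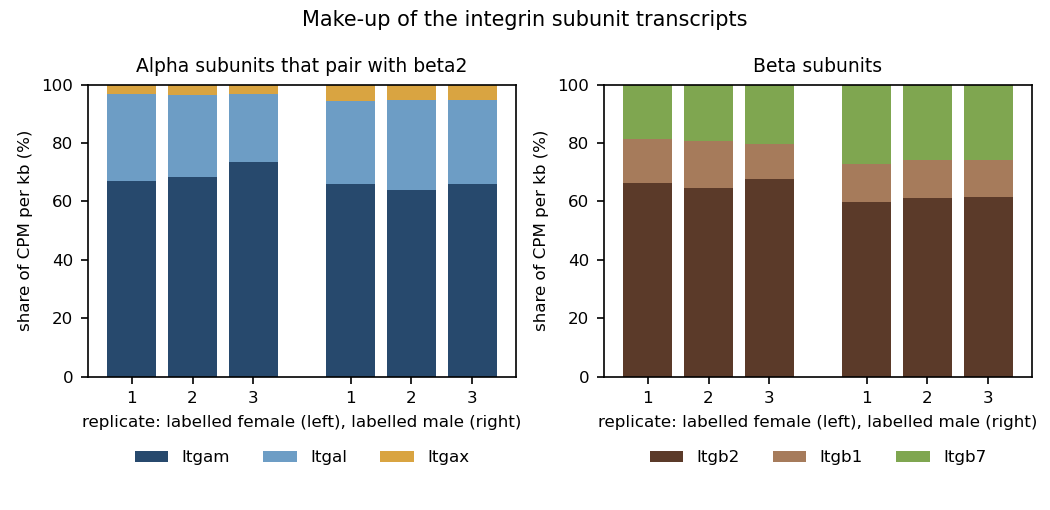
Share of each integrin subunit in the summed CPM per kb of its set (vertical axes, percent) in each library, the 3 labelled female on the left and the 3 labelled male on the right of each panel. The left panel holds the alpha chains that pair with beta2 and the right panel the beta chains; the Itgb7 band is 18.6 to 20.4% in the female-labelled libraries and 25.7 to 27.3% in the male-labelled ones.

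The rest of the adhesion pathway was read from 7 lists holding 101 genes, of which 87 passed the filter. Of these 11 rose and 2 fell, 14.9% of those tested, near the 13.9% of all genes, and their median log2 fold change was 0.05. By list, 10 to 28.6% of the tested genes passed, on 6 to 20 genes each. Without replicate 3 labelled female 20 rose and 6 fell, in a fit that called 1439 higher and 1269 lower of all 12078 genes tested. The fit to all libraries called 868 higher and 788 lower of 11903, so calls also grew over the whole set. Without any single male-labelled library 7 rose, beside 439 to 503 of all 12045 to 12068 genes. In each direction in which edgeR called no gene of a list in the fit to all libraries, DESeq2 and limma-voom called 0 as well. At an unadjusted p under 0.05 those directions held 3 lower genes each in the immunoglobulin and activation lists, 1 lower gene each among the glycan enzymes and the sheddases, and 0 in the other lists.

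Among the other integrin chains, 14 of 19 passed the filter, 2 fell and none rose by edgeR (1 rose without replicate 3 labelled female, Itga1, at 0.19 with adjusted p = 0.0469, where 14 alternatives gave 0.0469 to 0.924). Itga5, whose alpha5 chain joins beta1 to form the fibronectin receptor, had 31.9, 34.2 and 35.6 CPM in the female-labelled libraries and 43.3, 45.97 and 42.7 CPM in the male-labelled ones. It fell by 0.38 (SE 0.0774, adjusted p = 0.00227 by edgeR) and so moved opposite to its partner Itgb1. Itgb4, the epithelial beta4 chain, held 6, 4 and 4 counts in the female-labelled libraries and 21, 13 and 16 in the male-labelled ones (log2 -1.98, SE 0.501, adjusted p = 0.0108), a call lost without female replicate 2 (adjusted p = 0.0559) or male replicate 1 (adjusted p = 0.0577), where 12 alternatives gave 0.0101 to 0.0577 and DESeq2 gave no adjusted p. The most abundant of this list, Itga1, a collagen receptor chain, averaged 57.1 ± 6.77 CPM in the female-labelled libraries and 53.5 ± 1.45 CPM in the male-labelled ones and did not pass (log2 0.09, adjusted p = 0.487).

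Of 7 selectins and other selectin ligands tested, 2 rose and none fell by edgeR (4 rose without replicate 3 labelled female). Cd44, a hyaluronan receptor that also carries E-selectin ligands, had 642, 617 and 636 CPM in the female-labelled libraries and 513, 504 and 499.6 CPM in the male-labelled ones (log2 0.32, SE 0.054, adjusted p = 0.000322 by edgeR). Cd34, a sialomucin of progenitor and endothelial cells, averaged 41.6 ± 3.72 CPM in the female-labelled libraries and 31.8 ± 2.08 CPM in the male-labelled ones (log2 0.39, SE 0.0857, adjusted p = 0.00422).

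Of 11 enzymes that build the sugars of selectin ligands, C1galt1c1 and C1galt1, the chaperone and the enzyme of core O-glycans, rose by 0.22 and 0.19 (SE 0.0595 and 0.0622, adjusted p = 0.0153 and 0.0412 by edgeR). Both calls were lost without female replicate 2 or any male-labelled library (adjusted p 0.00103 to 0.0944 for C1galt1c1 and 0.0127 to 0.158 for C1galt1 over 14 alternatives), and that of C1galt1 also without female replicate 1, with upper-quartile scaling and without mitochondrially encoded genes. The most abundant enzyme, the galactosyltransferase B4galt1, did not pass (log2 0.05, adjusted p = 0.616). Fut7, the fucosyltransferase that completes these ligands, had a log2 change of -0.17 (95% interval -0.45 to 0.103).

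F11r, which encodes the junction protein JAM-A, was the only gene of the immunoglobulin and junction list to pass in the fit to all libraries, with 5.08, 5.54 and 4.71 CPM in the female-labelled libraries and 2.77, 2.79 and 2.98 CPM in the male-labelled ones (log2 0.84, SE 0.207, adjusted p = 0.0089 by edgeR). Cd47, the most abundant of that list and a partner of integrins in transmigration, did not pass (log2 0.10, adjusted p = 0.231). Vcam1, the ligand of alpha4 beta1, had 91.2, 87.7 and 82.6 CPM in the female-labelled libraries and 91.1, 93.6 and 93.8 CPM in the male-labelled ones, with a change of -0.09 that did not pass (95% interval -0.221 to 0.0387). Madcam1, the ligand of alpha4 beta7, had 0 counts in each library, which allows up to 3 counts per library.

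Of 20 genes that promote or restrain integrin activation, 3 rose and none fell in the fit to all libraries by edgeR. In this list 3 fell without replicate 3 labelled female, and 1 each with the replicate number as a block and with a filter of 10 CPM. Skap2, an adaptor needed for beta2 integrin activation in neutrophils, had 273, 264 and 272 CPM in the female-labelled libraries and 231, 225 and 229.6 CPM in the male-labelled ones (log2 0.24, SE 0.055, adjusted p = 0.00553 by edgeR). Stk4, the kinase MST1, and Rap1b, a small GTPase of inside-out activation, rose by 0.19 and 0.18 (adjusted p = 0.042 and 0.0322), and both calls were lost without female replicate 1, without any male-labelled library and with upper-quartile scaling. Tln1, the gene of talin, which opens the integrin from inside, had a change of 0.00 (95% interval -0.125 to 0.135), and Fermt3, that of its partner kindlin3, one of -0.16 that did not pass (95% interval -0.291 to -0.0381, adjusted p = 0.0772). Flna, which encodes filamin A, a protein that competes with talin for beta chains, was the most abundant of the list and did not pass (log2 0.02, adjusted p = 0.827).

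Of 19 genes of adhesion complexes and signalling tested, Fgr, a Src-family kinase below beta2 integrins, and Lims1, an adaptor of the complex, rose by 0.31 and 0.28 (SE 0.0691 and 0.0548, adjusted p = 0.00409 and 0.00124 by edgeR), and none fell by edgeR in that fit (1 fell without replicate 3 labelled female). The count that rose was 6 without replicate 3 labelled female and with the replicate number as a block, 5 by DESeq2 and with no filter, and 4 without female replicate 2. Cd177, a neutrophil surface protein that associates with beta2 integrins and the most abundant here, did not pass (log2 0.13, adjusted p = 0.237). Ilk, which encodes the kinase-like partner of Lims1, had at most 2 counts in any library and was not tested. How reads shared by overlapping genes were counted is unstated, so this low count does not show that the gene was silent.

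Adam8, a membrane metalloprotease of leukocytes, had the smallest adjusted p of all these genes. Its level was 335, 295 and 358 CPM in the female-labelled libraries, against 169, 168 and 196 CPM in the male-labelled ones. The groups were far apart relative to their spread, with a rise of 0.89 (SE 0.0736, 1.85-fold, adjusted p = 4.42e-08 by edgeR). Adam17, a sheddase of many surface proteins, averaged 95.4 ± 5.75 CPM in the female-labelled libraries and 97.1 ± 4.43 CPM in the male-labelled ones and had a change of -0.03 (95% interval -0.162 to 0.11).

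**Figure D4:**
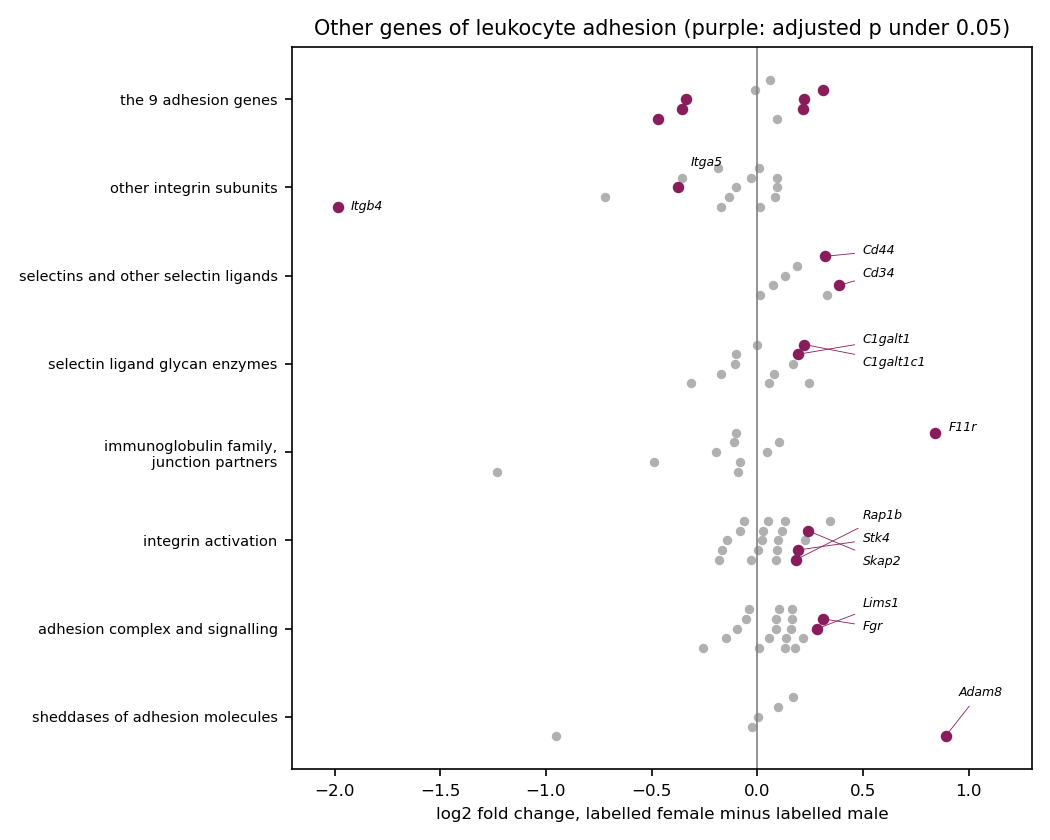
Log2 fold change (horizontal axis; female-labelled libraries minus the male-labelled ones) of the 9 adhesion genes and of the 87 tested genes of 7 further adhesion lists, 1 row per list, 1 dot per gene; vertical offsets within a row only separate the dots. Genes with an adjusted p under 0.05 are purple, and those of the further lists are named: 11 lie right of 0, Adam8 the farthest, and 2 left of it.

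Several of the 9 genes are also carried by other leukocytes, and markers of such cells moved with the groups. Beside the edgeR counts that follow in the fit to all libraries, 7.29% of all genes tested were higher and 6.62% lower. Without female replicate 3, edgeR called 1439 genes higher and 1269 lower of 12078. Without any other single library it called 439 to 648 higher and 467 to 570 lower, of 12045 to 12073. DESeq2 called 872 higher and 772 lower of 11903, and limma-voom 858 and 782. No share over all genes is given for an unadjusted p. The summed level of 9 dendritic cell markers was 211 to 218 CPM in the female-labelled libraries and 306 to 323 CPM in the male-labelled ones, and 5 of the 9 fell, among them Siglech to 91.8 ± 5.90 CPM in the female-labelled libraries, against 142 ± 5.93 CPM in the male-labelled ones. Itgax, a gene of the same cells, fell in the same libraries. Of 9 B cell markers 6 fell, with a sum of 153 to 216 CPM in the female-labelled libraries and 255 to 315 CPM in the male-labelled ones, beside the fall of Itgb7, which B cells also express. The part of either cell type in these results was not tested.

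Of 11 monocyte and macrophage markers 2 rose and 1 fell (4 rose without female replicate 3, and 1 without female replicate 1 or 2 or male replicate 2 or 3), with sums of 2369 to 2418 CPM in the female-labelled libraries and 2138 to 2208 CPM in the male-labelled ones; Ly6c2, the most abundant, did not pass (adjusted p = 0.692). T cell markers summed to 41.2 to 55.5 CPM in the female-labelled libraries and 49.4 to 60.4 CPM in the male-labelled ones, with 1 of 8 lower (0 without male replicate 2). NK cell markers summed to 30.3 to 52.1 CPM in the female-labelled libraries and 44.5 to 54.6 CPM in the male-labelled ones, and 0 of 6 passed by edgeR, DESeq2 or limma-voom in the fit to all libraries (1 lower at an unadjusted p under 0.05, and 1 by edgeR without female replicate 2). Of the 8 tested markers of mast cells, basophils and eosinophils 0 passed by edgeR or limma-voom in the fit to all libraries, 1 was lower by DESeq2 and 3 had an unadjusted p under 0.05. Without female replicate 3 edgeR called 1 higher and 1 lower, and without female replicate 2 it called 1 lower. This list summed to 300.5 to 326 CPM in the female-labelled libraries and 311 to 346 CPM in the male-labelled ones. Mcpt4 and Tpsb2, which define mast cells of connective tissue, were at 0 counts in all 6. The other 8 markers were present, among them Kit and Cpa3, at 66.56 and 36.11 CPM in the female-labelled libraries and 69.7 and 35.77 CPM in the male-labelled ones. How reads of overlapping genes were counted is unstated, so a count of 0 does not show that a gene was silent. Platelet and endothelial markers, sources of the integrin alphaIIb and of vessel-wall ICAM1, summed to at most 28.9 and 13.8 CPM in the female-labelled libraries and at most 31.2 and 16.3 CPM in the male-labelled ones. By edgeR, DESeq2 and limma-voom 0 of these passed in the fit to all libraries, with 2 endothelial markers lower and 0 platelet markers changed at an unadjusted p under 0.05, and 1 endothelial marker lower by edgeR without male replicate 1. Fibroblast markers summed to 11.1 to 16.2 CPM in the female-labelled libraries and 16.6 to 24.8 CPM in the male-labelled ones (1 of 3 tested lower, and 2 without female replicate 3), and erythroid markers to 32.9 to 63.1 CPM in the female-labelled libraries and 18.3 to 23.1 CPM in the male-labelled ones (3 of 5 higher, and 5 without female replicate 3). Of 11 neutrophil markers 8 rose by edgeR (6 without female replicate 3, and 5 without male replicate 1, 2 or 3). Their sums were 63430 to 81750 CPM in the female-labelled libraries and 56520 to 62530 CPM in the male-labelled ones. Itgam and Itgb2 rose beside these neutrophil markers. The monocyte and macrophage sum also stood apart between the groups, but this gap rested on Ccr2, and the markers of that list did not move together. Of that list, Ccr2 averaged 878.9 CPM in the female-labelled libraries and 613.5 CPM in the male-labelled ones (adjusted p = 5.32e-06 by edgeR). Fcgr1 fell, with 29.97 CPM in the female-labelled libraries and 48.73 CPM in the male-labelled ones (adjusted p = 1.2e-05 by edgeR). Csf1r averaged 216.2 CPM in the female-labelled libraries and 219.9 CPM in the male-labelled ones and did not pass (adjusted p = 0.819 by edgeR). The part of any cell type in the rise of Itgam and Itgb2 was not tested. Of all counts, 6.42 to 8.49% came from mitochondrially encoded genes in the female-labelled libraries and 10.7 to 13.1% in the male-labelled ones; with these genes left out, the same 6 adhesion genes passed.

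Among 10559 other genes with a mean of at least 1 log2 CPM, the 3 whose log2 CPM followed Icam1 most closely over the 6 libraries were Ifi207, Rnf213 and Adgre5 (Pearson r 0.995, 0.993 and 0.993). Those nearest to Itgax were Lrrc45, Atf3 and Ifi44 (r 0.998, 0.998 and 0.995), and those nearest to Itga4 were Zfp945, Ckap2l and Phf20 (r 0.997, 0.996 and 0.994). All of these values share the same 6 libraries and their grouping, so they describe likeness in these libraries only.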

How the data were processed

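Poly-A RNA of dura mater neutrophils was sequenced in 3 libraries labelled female and 3 labelled male. The authors deposited raw counts per Ensembl gene, not normalized. The submitters' processing notes list cutadapt 1.15, HISAT2 2.0.5 and build GRCm39 without saying how each was used. The sources used here do not name the counter or say how it treated strand or multi-gene reads. Symbols, chromosomes and transcript lengths came from GENCODE M21, of the older build GRCm38, which named 21898 of 21955 identifiers.

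The test was that of edgeR 4.0.16 (under R 4.3.3), with TMM scaling, filterByExpr (minimum count 10), quasi-likelihood fit with group as the only term, Benjamini-Hochberg adjustment over 11903 genes, threshold 0.05. Standard errors follow from each change and its F value, and intervals use the test's degrees of freedom. The step was tested on simulated counts. Alternatives were other scalings and filters, DESeq2 1.42.0, limma-voom 3.58.1, a stricter threshold, no mitochondrially encoded genes, the replicate number as a block, each library left out and, chosen after seeing the data, exon length in place of transcript length. Of the 9 genes, Icam1 and Itgax had the fewest counts per library, 298 to 572.

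The genes and lists were chosen with earlier results of these data known. Of 204 list entries 202 matched. Genes named outside the 9 are, per list, up to 5 with the largest called change and the most abundant, with up to 2 called per cell type. A gene this rule names is not reported here. Itgae, Vcam1, Madcam1, Fut7, Tln1, Fermt3, Ilk and Adam17 were added for their role, after their values were seen. Of the cell type markers only S100a9, Siglech, Ly6c2, Ccr2, Fcgr1, Csf1r, Kit, Cpa3 and, as markers at 0 counts, Mcpt4 and Tpsb2 are named. Csf1r, Kit and Cpa3 were added after their values were seen.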

Additional observations from a re-analysis of the deposited data

How the results depend on the processing

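Itgax and Itgb7 passed in every fit run. At a threshold of 0.01, 410 genes were higher and 410 lower, 1 of the 9 adhesion genes was higher (Itgam), and 7 of the wider adhesion genes were higher and 1 lower. DESeq2 called 1 wider adhesion gene lower. With 1 library left out, 439 to 1439 genes were higher and 467 to 1269 lower. Of the 9, 0 to 3 were higher and 2 or 3 lower, and 7 to 20 wider genes were higher and 2 to 6 lower. Fits to 5 libraries have less power, yet the fit without female replicate 3 gave the upper ends over all genes and over the wider genes. It called more than the fit to all libraries, which had 868 genes higher and 788 lower. With 1 library left out Itga4 ranged from -0.126 to 0.126 (log2; 0.0049 without male replicate 2), and Flna from -0.0125 (without female replicate 1) to 0.0586; the cause was not tested. The difference in share was 4.3 percentage points for Itgam (4.11 with exon length) and -6.78 for Itgb7 (-6.79).

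The replicate number as a block gave 1007 higher and 914 lower genes, 3 and 3 of the 9, and 16 and 3 wider genes, with the same 6 adhesion genes called. Deviations of same-numbered libraries correlated at -0.0346, 0.0921 and 0.0756. Replicates 2 and 3 labelled female correlated best with the male library of their number, replicate 3 nearly as well with male replicate 1 (0.0671). Replicate 1 labelled female correlated best with male replicate 2 (0.0854). The labels state no pairing and all these correlations are low, so the numbers were not taken as pairs. Icam1 and Itgax had the fewest counts among the 9 genes, yet Itgax passed in every fit. Low counts limit Itgb4, Itgae and F11r beside them.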
